A study of Mus musculus with 4 samples.

Results

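The transcript levels of 9 genes, the immediate early genes Fos, Fosb, Jun, Junb, Jund, Egr1, Ier2 and Ier3 together with Myc, were examined in cultured mouse neural stem cells. The genes were chosen by name, as genes that growth factors induce. Each name matched 1 entry of the table, so the set held 9 of its 55487 genes.

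Primary neural stem cells had been grown as neurospheres from mid-gestation embryonic neocortex, and 4 RNA libraries were made, 1 for each group. The control carried floxed Tut1 alleles (Tut1 f/f) and received empty lipid nanoparticles. The Tut1 KO (Tut1 f/f), Trp53 KO (Trp53 f/f) and double KO (Tut1 f/f with Trp53 f/f) cultures received nanoparticles loaded with mRNA for Cre recombinase, which cuts out the floxed DNA, and were collected after 3 days. All cultures thus carried floxed alleles, and the control, labelled wild type, differed from the others in the Cre mRNA as well as in the deletion. The medium of these cultures contained the growth factors EGF and bFGF. Tut1 encodes the uridylyltransferase that tails U6 small nuclear RNA, and Trp53 encodes p53.

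Levels were in transcripts per 1000000 transcripts (TPM), a unit that divides by transcript length, so that genes can be compared with each other. Differences between libraries were taken on the log2(TPM + 1) scale, which understates the change of low genes. With 1 library per group the differences have no replicate check, and neither a test nor an error is given. Whether a difference exceeded the spread between cultures could therefore not be told. TPM keeps no depth, so the depth of the libraries was unknown.

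Between 23070 and 23317 genes were listed above 0 in a library. Trp53 was lower in the libraries whose labels name its deletion, at 119.9 TPM in the control, 100.4 with Tut1 KO, 39.7 with Trp53 KO and 41.9 with double KO. Tut1 was not reduced in the library that carries the Tut1 KO label, at 29.8 TPM against 12.2 in the control, nor in the double KO, at 13.7 TPM against 12.5 in the Trp53 KO. Cre removes a single exon of Tut1, however, and a gene-level value also counts the other exons, so these levels check neither the label nor the deletion. Directions that compare Tut1 labels therefore rest on the labels. The control and the double KO expressed the Y-linked gene Ddx3y (24.4 and 25.7 TPM) and the Tut1 KO and Trp53 KO libraries expressed Xist (188 and 204 TPM), so sex-linked transcripts divided the libraries in yet another way. All 11 neural stem cell markers examined reached 10 TPM in at least 1 library, with Fabp7, Nes, Sox2 and Vim among them, and their summed level was 12737 TPM in the control, 11418 with Tut1 KO, 10823 with Trp53 KO and 12546 with double KO, of which Fabp7 gave 7902 to 9441 TPM. Each of 6 microglia markers, 7 endothelium and mesenchyme markers and 4 red cell markers stayed under 1 TPM in every library. Summed neuron markers ranged from 166 to 241 TPM, of which Map2 gave 141 to 208, oligodendrocyte lineage markers (Olig1, Olig2 and Pdgfra above all) from 1504 to 1691 TPM and astrocyte markers from 82.2 to 93.5 TPM, with Mog, Gfap and Aqp4 under 1 TPM.

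Immediate early genes are transcribed within minutes of a growth factor signal, without the need for new protein. The signal runs through the ERK kinases to factors that already sit at the promoters, namely SRF with its partners of the Elk family, and CREB. Fos and Jun proteins pair to form AP-1, EGR1 is a zinc finger factor, and MYC pairs with MAX to activate genes of growth and ribosome production. Their mRNAs are short-lived, and proliferating neural stem cells kept in growth factors are known to express several of them continuously.

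The promoters of Fos, Junb and Ier3 are shown because Fos is the textbook example of a growth factor induced promoter, whereas Junb and Ier3 gave the largest differences between the Trp53 KO and double KO libraries. RefSeq promoter windows on GRCm38.p6, which run from 250 bases before to 50 bases after the start site, were matched by symbol for 6 of the 9 genes. Windows were not used here for Egr1, Ier2 and Myc. Capitals mark matches, on either strand, to the CRE core TGACGT, the AP-1 site TGACTCA, the TATA box TATAAA, the CCAAT box, the GC box GGGCGG and the CArG box bound by SRF. The windows lie at chr12:85473640-85473939 on the plus strand for Fos, at chr8:84978699-84978998 on the minus strand for Junb and at chr17:35821463-35821762 on the plus strand for Ier3.
Fos promoter: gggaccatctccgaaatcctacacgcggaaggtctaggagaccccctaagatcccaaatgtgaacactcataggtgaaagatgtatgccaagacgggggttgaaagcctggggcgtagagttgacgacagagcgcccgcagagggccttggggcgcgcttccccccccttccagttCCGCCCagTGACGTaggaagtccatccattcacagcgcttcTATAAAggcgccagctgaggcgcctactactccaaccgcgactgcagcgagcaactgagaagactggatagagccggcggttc
Junb promoter: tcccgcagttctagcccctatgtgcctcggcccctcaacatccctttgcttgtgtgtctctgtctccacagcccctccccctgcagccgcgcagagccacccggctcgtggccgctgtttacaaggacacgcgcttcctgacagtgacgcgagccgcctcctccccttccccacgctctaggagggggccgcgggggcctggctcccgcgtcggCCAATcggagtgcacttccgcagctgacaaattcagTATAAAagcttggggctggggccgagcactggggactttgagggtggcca
Ier3 promoter: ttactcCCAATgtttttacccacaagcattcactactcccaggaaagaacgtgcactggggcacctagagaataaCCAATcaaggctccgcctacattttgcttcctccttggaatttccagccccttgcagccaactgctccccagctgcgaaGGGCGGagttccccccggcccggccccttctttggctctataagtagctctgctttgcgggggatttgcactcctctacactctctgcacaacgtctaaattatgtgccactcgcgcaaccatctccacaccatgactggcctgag

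In the Fos window the CRE core lay at positions -66 to -61 from the start site, next to a GC box on the minus strand at -74 to -69, and a TATA box lay at -33 to -28. The Junb window held a CCAAT box at -36 to -32 and a TATA box at 1 to 6 from the RefSeq start, which lies upstream of the GENCODE start of Junb (by -30 bases). The Ier3 window held CCAAT boxes at -244 to -240 and -175 to -171 and a GC box at -96 to -91. Among 32851 RefSeq windows of this length, 7.51% held a CRE core, 5.20% an AP-1 site, 13.6% a TATA box, 37.4% a CCAAT box, 35.7% a GC box and 1.63% a CArG box. In the Jun window a CCAAT box lay at -65 to -61 and a GC box, on the minus strand, at -89 to -84, and the Fosb window held GC boxes only. The RefSeq start of Jund lies upstream of its GENCODE start (by -1210 bases), so that its window does not cover the GENCODE promoter. No CArG box or AP-1 site of these exact letters lay in any of the 6 windows. Bases more than 250 before the RefSeq start were not searched, nor were the promoters of Egr1, Ier2 and Myc. The absence therefore does not mean that these genes lack such sites. A match describes letters in a window and is no evidence that a factor binds there.

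Most of the 9 genes were highly expressed in every library. As a set, their levels differed between libraries by about as much as those of all genes, as the spans given below show. Ier3 was the highest and Fosb the lowest of the 9 in all 4 libraries. In the control, the genes in order were Ier3, Jun, Egr1, Jund, Myc, Ier2, Fos, Junb and Fosb. This order was the same in the other libraries except that Jund stood above Egr1 in the Tut1 KO. In the control, 96.0% of the genes listed above 0 had a lower level than Ier3, 95.5% than Jun, 94.5% than Egr1, 92.7% than Jund and 89.8% than Myc. The corresponding share was 83.3% for Ier2, 74.0% for Fos, 69.0% for Junb and 17.2% for Fosb. The summed level of the 9 genes was 668 TPM in the control, 675 with Tut1 KO, 719 with Trp53 KO and 629.9 with double KO.

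**Figure D1:**
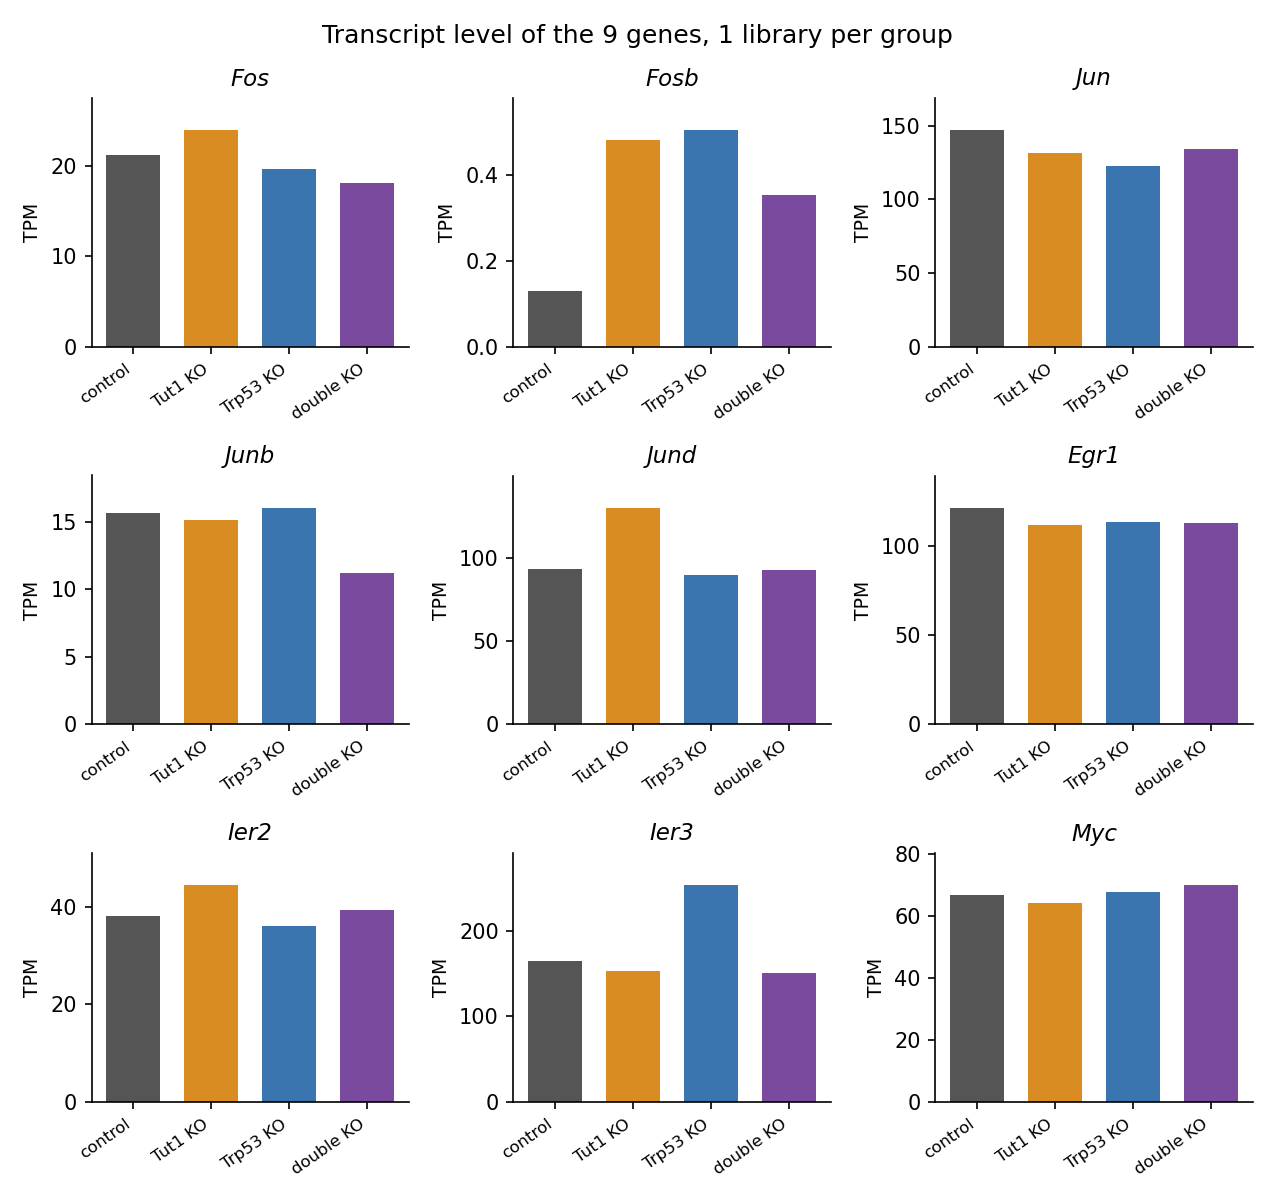
Transcript level (TPM, linear axis from 0, a separate scale for each gene) of the 9 genes in the 4 libraries, with 1 bar per library and no error bar because each group had 1 library. Ier3 stands highest in the Trp53 KO at 253 TPM, Jund highest in the Tut1 KO at 130.0 TPM, and the bars of Egr1 and Myc are nearly level.

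Each gene was compared in 4 contrasts, in which a gene was called at a difference of at least 1 and was included where it reached 10 TPM in at least 1 of the libraries compared. Of the 9 genes, 8 passed this minimum and Fosb did not. The contrasts share libraries in pairs and are not independent of each other, and each sets a library with Ddx3y against one with Xist, so the deletion and the sex-linked difference cannot be told apart in any of them. None of the 8 genes was called in any contrast, whereas 8.30% of the 9314 genes at 10 TPM or more in a library were called in at least 1 of the 4. For Tut1 KO minus control, the share of all genes called was 1.48% higher and 2.61% lower, and with quantile normalization the numbers of genes called, 134 higher and 236 lower, became 180 and 189. The shares were 1.41% higher and 1.79% lower for double KO minus Trp53 KO, 1.92% higher and 1.91% lower for Trp53 KO minus control, and 2.13% higher and 1.77% lower for double KO minus Tut1 KO. At these shares a count of 0 among 8 genes does not set the genes apart from the rest of the table.

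The median difference of the 8 genes was -0.05 for Tut1 KO minus control, 0.02 for double KO minus Trp53 KO, -0.07 for Trp53 KO minus control and -0.10 for double KO minus Tut1 KO. Over all genes compared the medians were -0.09, 0.05, -0.05 and 0.09. Of the 8 genes, 3 had a positive and 5 a negative difference in each contrast except double KO minus Trp53 KO, where 4 were positive and 4 negative. The sign of the group median was not stable, since it was 0.05 for Tut1 KO minus control after quantile normalization and 0.02 for double KO minus Tut1 KO after a correction for transcript GC content and length.

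**Figure D2:**
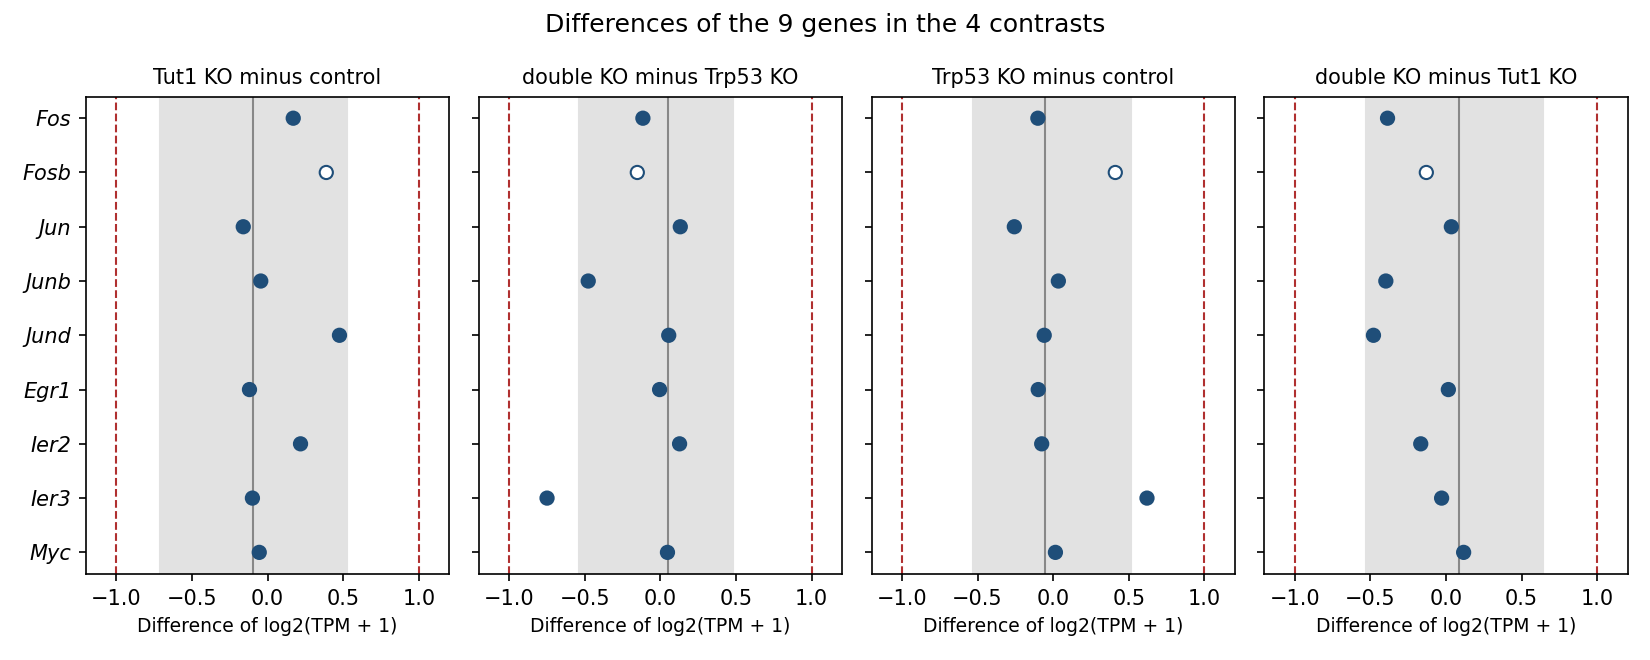
Difference of log2(TPM + 1) of each of the 9 genes in the 4 contrasts, with filled points for genes at 10 TPM or more in a library compared and open points for Fosb. Grey bands hold the middle of all genes (5th to 95th percentile), grey lines mark their median and dashed lines mark differences of 1 in either direction. Ier3 lies outside the band for Trp53 KO minus control (0.62) and for double KO minus Trp53 KO (-0.75), and no point reaches a dashed line.

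Fos, the inducible partner of the Jun proteins in AP-1, was expressed at a moderate level. Fos (ENSMUSG00000021250) lies at chr12:85473890-85477273 on the plus strand of GRCm38 and has 4 exons. It was at 21.1 TPM in the control, 23.9 with Tut1 KO, 19.6 with Trp53 KO and 18.1 with double KO. Its level was thus highest in the Tut1 KO and lowest in the double KO, and both libraries with Trp53 deleted were below both with Trp53 intact. Its largest difference was -0.39, for double KO minus Tut1 KO, and the other contrasts gave 0.17 for Tut1 KO minus control, -0.12 for double KO minus Trp53 KO and -0.10 for Trp53 KO minus control. In bulk RNA, a smaller number of cells expressing a gene cannot be told apart from less RNA in each cell.

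Fosb, which encodes another Fos protein, was close to absent. Fosb (ENSMUSG00000003545, chr7:19302696-19310051, minus strand, 4 exons) was at 0.13 TPM in the control, 0.48 with Tut1 KO, 0.50 with Trp53 KO and 0.35 with double KO. The control was the lowest of the 4, but all values were under 1 TPM. Its differences from the control were 0.39 in the Tut1 KO and 0.41 in the Trp53 KO, and with a pseudocount of 0.1 in place of 1 they were 1.33 and 1.39, so their size depended on the pseudocount.

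Fos made up most of the Fos family. The sum of Fos, Fosb, Fosl1 and Fosl2 was 29.4 TPM in the control, 32.4 with Tut1 KO, 28.6 with Trp53 KO and 24.3 with double KO, of which Fos contributed 72.0%, 73.9%, 68.6% and 74.2%. Fosl2, which encodes the Fos-related protein FRA2, gave most of the remainder, at 7.43, 7.87, 8.42 and 5.75 TPM in the same order. The composition of the family therefore differed little between libraries.

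Jun, which encodes the partner of Fos in classical AP-1, was the second most abundant of the 9 genes in every library. Jun (ENSMUSG00000052684, chr4:95049034-95052222, minus strand, 1 exon) was at 147 TPM in the control, 131 with Tut1 KO, 123 with Trp53 KO and 134 with double KO. It was highest in the control and lowest in the Trp53 KO, and its values in the control and double KO did not overlap those in the single KO libraries, the division that sex-linked transcripts also gave. The differences were -0.16 for Tut1 KO minus control, 0.13 for double KO minus Trp53 KO, -0.26 for Trp53 KO minus control and 0.04 for double KO minus Tut1 KO.

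Junb, a Jun protein with weaker activation, was lower in the double KO than elsewhere. Junb (ENSMUSG00000052837, chr8:84974484-84978718, minus strand, 1 exon) was at 15.6 TPM in the control, 15.1 with Tut1 KO, 16.0 with Trp53 KO and 11.2 with double KO. The values of the control, Tut1 KO and Trp53 KO lay within 1 TPM of each other. The difference was -0.48 for double KO minus Trp53 KO and -0.40 for double KO minus Tut1 KO, against -0.04 for Tut1 KO minus control and 0.03 for Trp53 KO minus control. With a correction for GC content and length, double KO minus Tut1 KO was -0.23, and the genes of the highest GC decile, which includes Junb, had a median of -0.13 in that contrast. An exon of Prdx2 overlaps Junb by 173 nt on the opposite strand, and Prdx2 was at 526 TPM in the control and 597, 521 and 512 in the Tut1, Trp53 and double KO. Because the strand setting of the counting was not stated, reads of both genes cannot be told apart in that stretch.

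Jund, the Jun protein that is expressed in most resting cells, was higher in the Tut1 KO library than elsewhere. Jund (ENSMUSG00000071076, chr8:70698949-70700616, plus strand, 1 exon) was at 93.2 TPM in the control, 130.0 with Tut1 KO, 89.4 with Trp53 KO and 92.9 with double KO. The control, Trp53 KO and double KO were close to each other. The difference was 0.48 for Tut1 KO minus control and -0.48 for double KO minus Tut1 KO, and the other contrasts gave 0.06 and -0.06. Jund transcripts have a GC content of 67.1%, and the 847 genes of the highest GC decile had medians of 0.11 for Tut1 KO minus control and -0.13 for double KO minus Tut1 KO. With a correction for GC content and length, the differences of Jund were 0.42 and -0.26. The part of GC content in the Jund difference was not tested beyond this correction. The predicted gene Gm11175, which overlaps Jund by 543 nt on the opposite strand, was at 0.03 TPM in the control and 1.60, 0.17 and 0.25 in the Tut1, Trp53 and double KO.

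The Jun family as a whole was at 256 TPM in the control, 276 with Tut1 KO, 228 with Trp53 KO and 239 with double KO. Jun contributed 57.4%, 47.5%, 53.8% and 56.3% of this sum, and Jund 36.5%, 47.0%, 39.2% and 38.9%. In the Tut1 KO library Jun and Jund were thus at nearly equal levels, whereas Jun was the larger in the others. Junb contributed between 4.71% and 7.04%. The Jun family exceeded the Fos family 8.70-fold in the control, 8.54-fold with Tut1 KO, 7.96-fold with Trp53 KO and 9.80-fold with double KO.

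Egr1, a zinc finger factor induced through SRF, differed little between libraries. Egr1 (ENSMUSG00000038418, chr18:34859823-34864984, plus strand, 2 exons) was at 122 TPM in the control, 112 with Tut1 KO, 113 with Trp53 KO and 113 with double KO. The control was the highest and the 3 libraries that received Cre mRNA were within 2 TPM of each other. The differences were -0.12 for Tut1 KO minus control, -0.10 for Trp53 KO minus control, 0.02 for double KO minus Tut1 KO and below 0.01 in size for double KO minus Trp53 KO.

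Ier2, a small nuclear protein of the immediate early response, was slightly higher in the Tut1 KO. Ier2 (ENSMUSG00000053560, chr8:84661331-84662852, minus strand, 1 exon) was at 38.1 TPM in the control, 44.4 with Tut1 KO, 36.1 with Trp53 KO and 39.5 with double KO. Both libraries labelled with a Tut1 deletion were above both without it, the nearest values being 39.5 and 38.1 TPM. The differences were 0.22 for Tut1 KO minus control, 0.13 for double KO minus Trp53 KO, -0.08 for Trp53 KO minus control and -0.17 for double KO minus Tut1 KO. After the correction for GC content and length the first of these was 0.12 and the last -0.01.

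Ier3, an immediate early gene linked to ERK signalling and cell survival, differed most among the 8 genes at 10 TPM or more. Ier3 (ENSMUSG00000003541, chr17:35821684-35822923, plus strand, 2 exons) was at 165 TPM in the control, 153 with Tut1 KO, 253 with Trp53 KO and 150.4 with double KO. The Trp53 KO library stood above the other 3, which were close to each other, and the highest value was 1.69 times the lowest. The difference was 0.62 for Trp53 KO minus control and -0.75 for double KO minus Trp53 KO. Both rest on the same Trp53 KO library, and what set that library apart was not tested. The remaining contrasts gave -0.10 for Tut1 KO minus control and -0.03 for double KO minus Tut1 KO. Ier3 was the only one of these 8 genes past a lower threshold of 1.5-fold, which 4.09% of all genes passed as higher in Trp53 KO minus control and 4.41% as lower in double KO minus Trp53 KO. Over all alternatives tried, its differences ranged from 0.55 to 0.67 and from -0.80 to -0.70.

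Myc, the growth-promoting transcription factor, differed least, together with Egr1, among the 8 genes at 10 TPM or more. Myc (ENSMUSG00000022346, chr15:61985391-61990374, plus strand, 3 exons) was at 67.0 TPM in the control, 64.4 with Tut1 KO, 67.7 with Trp53 KO and 69.9 with double KO. The 4 values lay close together, with the Tut1 KO lowest and the double KO highest. The differences were -0.05 for Tut1 KO minus control, 0.05 for double KO minus Trp53 KO, 0.01 for Trp53 KO minus control and 0.12 for double KO minus Tut1 KO. Myc made up 84.5% of the sum of Myc, Mycn and Mycl in the control and 86.7%, 84.9% and 84.5% in the Tut1, Trp53 and double KO. Mycn, the family member prominent in the embryonic brain, was at 2.11, 2.11, 2.58 and 3.32 TPM, and Mycl at 10.1, 7.73, 9.45 and 9.56 TPM.

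The span of a gene, its highest minus its lowest log2(TPM + 1) over the 4 libraries, summarises how far the libraries stood apart. The span was 0.12 for Myc, 0.12 for Egr1, 0.26 for Jun, 0.29 for Ier2, 0.39 for Fos, 0.48 for Junb, 0.53 for Jund and 0.75 for Ier3. Among the 9314 genes at 10 TPM or more in a library, 3.93% had a smaller span than Myc and 4.13% than Egr1, whereas 84.8% had a smaller span than Ier3. The other 5 genes lay between, from 25.1% for Jun to 70.8% for Jund. None of the 8 genes spanned 1 or more, as 9.28% of all genes did, and only Ier3 spanned 1.5-fold or more, as 24.4% of all genes did. The median span of the 8 genes was 0.34, against 0.39 over all genes.

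**Figure D3:**
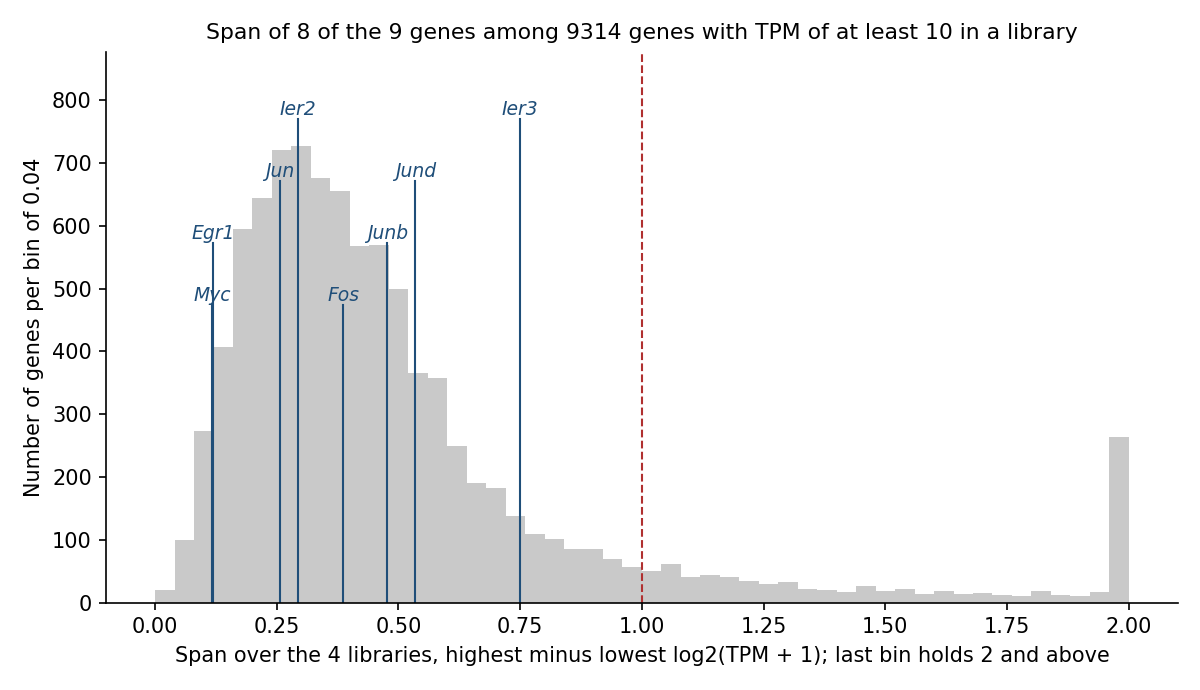
Histogram of the span over the 4 libraries (highest minus lowest log2(TPM + 1), bins of 0.04, with spans of 2 and above in the last bin) for 9314 genes, with vertical lines at the 8 named genes and a dashed line at 1. Myc and Egr1 fall at the low end (both 0.12), and Ier3 stands farthest right of the 8 at 0.75.

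Grouping the libraries by label, a description added after the values were seen, gave no common direction. By the Trp53 label, Fos and Jund were lower and Myc higher in both libraries with the deletion than in both without, so that 3 of the 9 genes did not overlap, while 27.7% of all genes did not. The gap was narrow for Jund, between 92.9 and 93.2 TPM. By the Tut1 label, Junb, Egr1 and Ier3 were lower and Ier2 higher, which made 4 of the 9 genes against 32.4% of all genes. By sex-linked transcripts, Jun was higher and Fosb lower in the control and double KO, which made 2 of the 9 genes against 39.9% of all genes. The shares of all genes were taken over the 9314 genes at 10 TPM or more in a library, a level that Fosb did not reach.

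The profiles most like those of Ier3, Jund and Junb, the 3 genes with the largest spans, were sought by the distance between centred log2(TPM + 1) profiles over the 4 libraries. Nearest to Ier3 were Copz2, a subunit of the vesicle coat (distance 0.02), Rdm1 (0.03), Dtnbp1 (0.05), Gm14328 (0.09) and Itsn1 (0.12). Copz2 was at 13.2 TPM in the control, 12.2 with Tut1 KO, 20.5 with Trp53 KO and 11.8 with double KO, so it too stood high in the Trp53 KO library alone. Nearest to Jund were Otud5, a deubiquitinase, Ciao3, Cox16, 2610306M01Rik and Gm8741, at distances from 0.02 to 0.05, and nearest to Junb were Palm, Flad1, Bex1, Hnrnpa3 and Banp, at 0.03 to 0.07. None of these genes was on the lists of AP-1 subunits, immediate early genes, upstream signalling, Myc network or Myc targets. Those lists hold few of the 9314 genes searched, so their absence here says little.

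Exon structure and 3′ untranslated regions, which the choice by name did not use, varied among the 9 genes. Jun, Junb, Jund and Ier2 have a single exon, and the others are spliced. Exons were counted in the longest annotated transcript of each gene. The single-exon class therefore also held genes that have spliced transcripts, such as Vim, Fbl and Mxd4. The median difference of Jun, Junb, Jund and Ier2 was 0.09 for Tut1 KO minus control, against -0.08 over 476 protein-coding genes of the single-exon class. That of the 4 spliced genes at 10 TPM or more was -0.08, against -0.10 over 7774 genes of the spliced class. For double KO minus Trp53 KO the medians were 0.09 for the single-exon and -0.06 for the spliced genes of the set, against 0.08 and 0.06 over all genes of each kind. For Trp53 KO minus control they were -0.07 and -0.04, against -0.05 and -0.06, and for double KO minus Tut1 KO they were -0.28 and -0.01, against 0.10 and 0.09. These differences were not tested. The 3′ untranslated regions of 8 of the 9 genes held the pentamer ATTTA, the core of the AU-rich elements of short-lived mRNAs, on the transcript strand, as did those of 69.7% of 8436 protein-coding genes. Its density was 8.16 per kb in Ier3, 4.91 in Fos, 4.52 in Myc, 4.12 in Junb, 3.24 in Jun, 1.88 in Jund, 1.64 in Egr1 and 0.47 in Fosb, and Ier2 had none. The median of the 9 genes was 3.24 per kb, against 1.35 over the 8436 genes, and the density pooled over all bases was 2.55 per kb, against 1.84.

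The remaining subunits that can join AP-1 were mostly low. Of 8 listed, 3 reached 10 TPM and none was called in any contrast, against 8.30% of all genes called in at least 1. Atf7, which encodes a factor that pairs with Jun proteins, was at 32.6 TPM in the control, 51.6 with Tut1 KO, 55.4 with Trp53 KO and 51.1 with double KO. Atf2, its close relative, was at 13.3, 20.9, 21.9 and 24.4 TPM in the same order. Both were lower in the control than in the 3 libraries that received Cre mRNA, with differences of 0.65 and 0.61 for Tut1 KO minus control and of 0.75 and 0.68 for Trp53 KO minus control. Jdp2, a repressor of AP-1, was at 14.3, 15.1, 16.8 and 17.8 TPM. The median of the 3 genes was 0.61 for Tut1 KO minus control and 0.68 for Trp53 KO minus control, against -0.09 and -0.05 over all genes, and 0.08 and 0.21 for double KO minus Trp53 KO and double KO minus Tut1 KO, against 0.05 and 0.09. Deletion, Cre treatment and sex-linked transcripts cannot be told apart in these contrasts with the control.

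Among 32 other immediate early genes, 16 reached 10 TPM and 1 was called in at least 1 contrast, against 8.30% of all genes. Klf10, a zinc finger gene induced by TGF-beta and growth factors, was at 135 TPM in the control, 24.7 with Tut1 KO, 132 with Trp53 KO and 115 with double KO. It was low in the Tut1 KO library alone, with a difference of -2.41 for Tut1 KO minus control and 2.17 for double KO minus Tut1 KO. Among the 8 genes compared, the lowest difference for Tut1 KO minus control was -0.16, that of Jun. Btg2, an antiproliferative gene and known p53 target, was at 60.6 TPM in the control and 71.0, 41.7 and 42.3 in the Tut1, Trp53 and double KO, lower in both libraries with Trp53 deleted. Nfil3, a leucine zipper repressor, was at 17.9, 19.7, 25.9 and 21.8 TPM. The medians of the 16 genes were -0.12, -0.01, -0.15 and 0.10 in the 4 contrasts, in the order used for the 9 genes, against -0.09, 0.05, -0.05 and 0.09 over all genes.

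The signalling genes upstream were listed as 21 genes of the ERK, SRF and CREB routes, of which 17 reached 10 TPM and 2 were called in at least 1 contrast, against 8.30% of all genes. Creb1, which encodes CREB, was at 12.9 TPM in the control, 12.5 with Tut1 KO, 6.51 with Trp53 KO and 17.6 with double KO, with a difference of 1.31 for double KO minus Trp53 KO and -0.89 for Trp53 KO minus control. Creb1 was lowest in the Trp53 KO library, where it did not reach 10 TPM. Its called difference thus passed the minimum through the double KO alone, and that of Trp53 KO minus control through the control alone. Mapk9, which encodes the Jun kinase JNK2, was at 10.1, 3.89, 6.01 and 6.23 TPM, with a difference of -1.19 for Tut1 KO minus control, and passed the minimum through the control alone. Both genes lay near the minimum of 10 TPM and lost their calls under some alternatives. Atf1, a relative of Creb1, was at 13.7, 16.4, 22.2 and 24.97 TPM and was not called. Srf was nearly level, at 25.1, 24.2, 22.5 and 23.0 TPM. The medians of the list in the 4 contrasts, in the order above, were -0.11, -0.12, -0.03 and 0.13.

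Of the 13 genes of the Myc and Max network, 8 reached 10 TPM and 2 were called in at least 1 contrast, against 8.30% of all genes. At such list sizes these counts set none of the lists apart. Mxi1, a MAX partner that opposes MYC, was at 13.7 TPM in the control, 40.7 with Tut1 KO, 37.998 with Trp53 KO and 33.1 with double KO. It was higher in the 3 libraries that received Cre mRNA, with a difference of 1.503 for Tut1 KO minus control and 1.41 for Trp53 KO minus control. Mxd4, another such partner, was at 40.3, 79.2, 38.007 and 32.5 TPM, highest in the Tut1 KO, with a difference of -1.26 for double KO minus Tut1 KO and 0.96 for Tut1 KO minus control. Max was at 78.1, 79.4, 87.0 and 89.1 TPM, and Mlx, which pairs with the Mondo factors, at 34.4, 23.9, 40.007 and 36.1 TPM. Mlx is uncertain, since Psmc3ip overlaps it by 385 nt on the opposite strand and was at 47.6, 31.7, 46.5 and 36.0 TPM. Myc itself spanned 0.12 over the libraries in which Mxi1 spanned 1.503 and Mxd4 1.26. The medians of the list were -0.02, -0.15, 0.02 and -0.04.

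**Figure D4:**
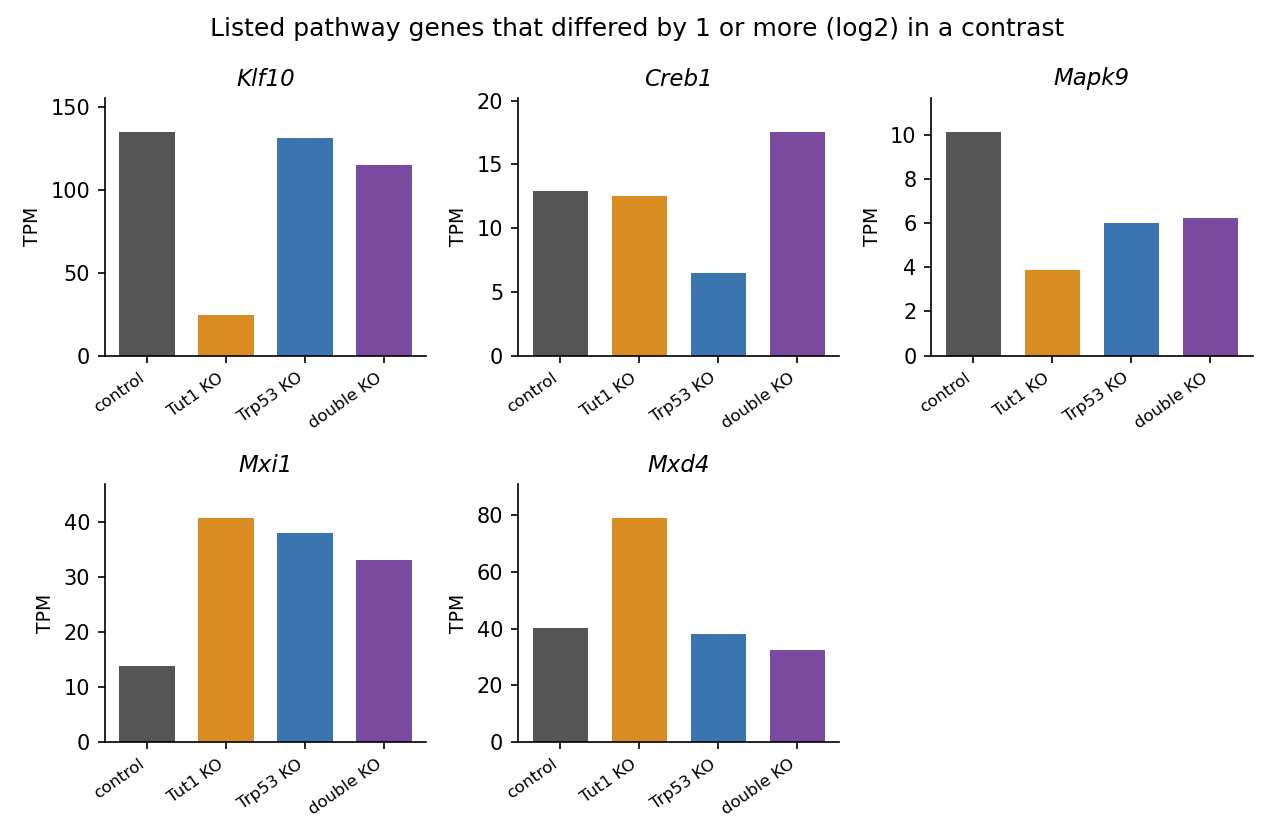
Transcript level (TPM, linear axis from 0, a separate scale for each gene) of the 5 listed pathway genes called in a contrast, in the 4 libraries, 1 bar per library. Klf10 is low in the Tut1 KO alone (24.7 TPM), Creb1 is lowest in the Trp53 KO (6.51 TPM), Mapk9 is highest in the control (10.1 TPM), Mxi1 is lowest in the control (13.7 TPM) and Mxd4 is highest in the Tut1 KO (79.2 TPM).

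All 28 listed targets of Myc, genes of ribosome production, nucleotide synthesis and growth, reached 10 TPM, and none was called in any contrast, against 8.30% of all genes called in at least 1. For Tut1 KO minus control, 10 were positive and 18 negative, with a median of -0.07, and for Trp53 KO minus control 7 were positive and 21 negative, with a median of -0.09. For double KO minus Trp53 KO and for double KO minus Tut1 KO, 21 were positive and 7 negative, with medians of 0.14 and 0.11. Over all genes the share with a positive difference was 39.3%, 40.1%, 58.7% and 60.3% in these contrasts in the order given, so the targets leaned the same way as the table as a whole. The medians over all genes were -0.09, -0.05, 0.05 and 0.09 in that order. By the median, the targets leaned further than all genes in each contrast except Tut1 KO minus control. Why they did so was not tested. The largest differences were those of Ddx21 (0.52), a nucleolar helicase, Wdr43 (0.51) and Eif4e (0.51), the cap-binding protein, for double KO minus Tut1 KO.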

How the data were processed

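RNA was measured in 4 libraries of mouse neural stem cells, 1 per group, grouped by the titles of the samples. The authors deposited gene-level TPM for 55487 Ensembl mouse gene IDs. The submitters' processing notes name Trimmomatic, HISAT2 and StringTie and the build mm10, and the annotation release is not given in the sources used here. A stranded kit for short reads is named in the labels but long reads in the series text, which leaves the platform unsettled. The strand setting of the counting and any pooling of cultures were not stated either. The TPM of a library summed to 999874 to 999892, and the smallest value above 0 was 1e-06, so no whole reads could be recovered, the depth is unknown and no interval for counting error is given. Columns of no sample used here numbered 0.

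Genes were matched by name. Differences were taken on log2(TPM + 1) between libraries for genes that reached 10 TPM in a library compared (in any of the 4 for the span) and were called at 1 or more. No test was run. Gene positions, exons, GC content and 3′ untranslated regions came from GENCODE M21 (GRCm38, the build that mm10 denotes), which held 55141 of the IDs, and promoter windows from RefSeq. The genes and all lists were chosen with earlier results of these data known. Named besides the 9 genes were, of each of 5 lists, the 3 genes with the largest difference in any contrast and every gene called, and, for the 3 genes of largest span, the 5 nearest profiles. Srf, Max, Mycn, Mycl and Fosl2 were named after their values were seen, as were the overlapping genes. Alternatives were other pseudocounts (0.1 and 5), other minimum levels, medians set to 0, quantile normalization, rescaling without 116 mitochondrially encoded and ribosomal protein genes, a correction for GC content and length, and a 1.5-fold threshold. The scripts, in Python 3.11.15 with matplotlib 3.10.9, numpy 2.4.6, scipy 1.17.1 and pandas 2.3.3, were tested on simulated data.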

Additional observations from a re-analysis of the deposited data

Results flagged for a closer look

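With 1 library per group, the following differences between contrasts were not tested. They were picked out because a listed gene passed the threshold in one contrast and had the opposite sign in its counterpart. For Klf10, Mapk9 and Creb1 the counterpart was near 0, and with the median of all genes set to 0 it changed sign, to 0.01, -0.01 and 0.05, so that the opposite signs were lost. None of the 9 genes was among them. For Klf10, Trp53 KO minus control (-0.04) less double KO minus Tut1 KO (2.17) was -2.21 on the log2(TPM + 1) scale. For Mapk9, the Tut1 KO contrast with the control (-1.19) less that of double KO with Trp53 KO (0.04) was -1.23, but Mapk9 passed the minimum of 10 TPM through the control alone, and neither the Trp53 KO nor the double KO reached it. For Creb1 the same subtraction gave -1.35, from -0.04 and 1.31. The difference of 1.31 passed the minimum of 10 TPM through the double KO alone, since Creb1 was at 6.51 TPM in the Trp53 KO. For Mxi1 the same subtraction gave 1.69, from 1.503 and -0.19, and Trp53 KO minus control (1.41) less double KO minus Tut1 KO (-0.29) gave 1.69 as well, since both subtractions use the same 4 values. In each case the cause was not tested.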

How the results depend on the processing

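Under 10 alternatives the 9 genes gave 36 differences, of which 7 changed sign, all at most 0.055 in size as first measured (Jun, Junb, Egr1, Ier3 and Myc, in 1 or 2 contrasts each). Among genes at 10 TPM or more, the largest difference of any of the 9 under any alternative was 0.80 in size, so none was called at a threshold of 1. At 1.5-fold, Ier3 alone was called, which gave 1 gene each for the span, for Trp53 KO minus control and for double KO against Trp53 KO, in place of 0. Calls in the ERK, SRF and CREB list numbered 2 and became 0 with a pseudocount of 5, 0 with 10 TPM required in every library compared, 1 with quantile normalization, 1 with the GC and length correction and 4 at 1.5-fold. At 1.5-fold the other AP-1 subunits gave 2 calls (Atf2 and Atf7) in place of 0, and the other immediate early genes 2 (Klf10 and Btg2) in place of 1. Mapk9 for Tut1 KO minus control was -0.77 with a pseudocount of 5 and -0.97 with the GC and length correction, Creb1 for double KO minus Trp53 KO was 0.97 with a pseudocount of 5, and Mxd4 for Tut1 KO minus control rose past 1 with medians set to 0 (1.05), quantile normalization (1.03) and the GC and length correction (1.08). The correction moved the median of all genes for Tut1 KO minus control from -0.09 to 0.01.

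Over all genes, Tut1 KO minus control gave 134 higher and 236 lower calls, against 61 and 86 with 10 TPM required in both libraries, 277 and 416 with a minimum of 1 TPM and 362 and 732 at 1.5-fold, and the other contrasts moved likewise. No paired analysis was possible because each group had 1 library and the labels give no replicate numbers, and no library could be left out. Depth is unknown, so the smallest difference that counting error allows could not be given.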
